A study of Mus musculus with 88 samples.

Results

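The 9 genes described here encode the receptors, enzymes and partners of endocannabinoid signalling, and were read from a table of 55487 genes counted in mouse nucleus accumbens. They are Cnr1 and Cnr2, the CB1 and CB2 cannabinoid receptors, Cnrip1, which binds the tail of CB1, the synthesis genes Dagla, Daglb and Napepld, and the breakdown genes Mgll, Abhd6 and Faah. They were chosen by name, and all 9 passed the filter on low counts, which left 25420 genes. Every group, controls included, received herpes simplex vectors for a Cas9 without nuclease activity that carries CREB(S133D), an always active form of the transcription factor CREB. The groups with the Fosb guide, named g11 and called targeted, were set against groups with a non-targeted guide, gNT, called control. Cre-dependent vectors were given to D1-Cre mice, which makes the female and male D1 arms, and to D2-Cre mice, which makes the D2 arms. Vectors that need no Cre were given to D1-Cre mice, which makes the arms called D1-D2. All mice were on a C57BL/6 background, and tissue was taken 6 days after surgery. Libraries with the Fosb guide and with the control guide numbered 6 and 8 in female D1, 7 and 4 in male D1, 8 and 8 in female D2, 7 and 8 in male D2, 12 and 8 in female D1-D2, and 4 and 7 in male D1-D2 mice. The sources used here do not give the age of the mice. RNA came from dissected tissue, and no isolation of vector-bearing cells is described.

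Endocannabinoids are lipids made on demand, mostly by postsynaptic neurons, that travel back to CB1 on axon terminals and lower transmitter release. The diacylglycerol lipases Dagla and Daglb make 2-arachidonoylglycerol (2-AG), which Mgll and Abhd6 hydrolyse, whereas Napepld is 1 source of anandamide and Faah breaks anandamide down. In the striatum CB1 lies on terminals of medium spiny neurons, interneurons and cortical afferents, while CB2 is known mainly from cells of the immune system, microglia among them.

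The promoters of the 2 receptor genes are shown, and whether their sequence bears on levels across libraries was not tested. Promoters (250 bases before to 50 after a transcript's start) were taken from RefSeq on GRCm38.p6 for 8 of the 9 members, 13 promoters in all, and capitals mark each CG dinucleotide. The first start site of Cnr1 is at chr4:33924014-33924313, plus strand, and those of Cnr2 are at chr4:135894939-135895238 and chr4:135911430-135911729, plus strand. The Cnr1 promoter shown ends before the start of Cnr1 in the GENCODE M21 annotation (33924593).
Cnr1, first start site: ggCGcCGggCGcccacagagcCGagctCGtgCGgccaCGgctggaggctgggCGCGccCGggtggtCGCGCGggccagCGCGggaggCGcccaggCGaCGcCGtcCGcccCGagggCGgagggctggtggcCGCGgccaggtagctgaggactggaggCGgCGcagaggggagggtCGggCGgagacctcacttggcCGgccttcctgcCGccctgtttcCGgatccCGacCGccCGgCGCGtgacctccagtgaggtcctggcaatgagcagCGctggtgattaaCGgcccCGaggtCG
Cnr2, first start site: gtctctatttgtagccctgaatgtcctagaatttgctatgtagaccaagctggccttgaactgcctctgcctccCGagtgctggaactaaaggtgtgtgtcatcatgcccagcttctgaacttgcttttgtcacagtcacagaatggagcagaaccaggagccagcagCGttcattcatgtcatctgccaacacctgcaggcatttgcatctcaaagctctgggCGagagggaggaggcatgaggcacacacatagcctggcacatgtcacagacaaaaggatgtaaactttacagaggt
Cnr2, second start site: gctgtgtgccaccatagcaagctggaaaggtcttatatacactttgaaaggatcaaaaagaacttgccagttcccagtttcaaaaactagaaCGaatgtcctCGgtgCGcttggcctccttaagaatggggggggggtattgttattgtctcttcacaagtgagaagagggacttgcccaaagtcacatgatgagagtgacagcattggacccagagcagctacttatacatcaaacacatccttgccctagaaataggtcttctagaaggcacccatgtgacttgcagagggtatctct
The Cnr1 promoter shown held 40 CG dinucleotides at 76.3% G and C, and 96.5% of 32851 RefSeq mouse promoters had as many or fewer. The 2 other Cnr1 start sites, not shown, differed from each other. The second held 33 at 69% G and C (92.3% of promoters had as many or fewer). The third held 5 at 46.3% G and C (43.6%), close to the Cnr2 promoters. Both Cnr2 promoters held 3, with 50% and 46.3% G and C, and 31.4% of promoters had as many or fewer. The CRE (TGACGTCA), AP-1 (TGANTCA), PU.1 (GAGGAAGT) and ISRE motifs were searched on both strands, the first being the motif bound by CREB and the second that bound by Fos family proteins. None of the 13 member promoters held any of these letters, against 1.79%, 7.81%, 3.2% and 3.44% of all promoters.

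The median library held 31393804 counts, the smallest 12430387 and the largest 69568367. The labels give a sequencing batch, and batch 2 held 9 male D2 libraries (3 with the Fosb guide and 6 controls) with the other 78 in batch 1. In 4 libraries, all with the Fosb guide, 10 genes took over 90% of the counts, so that Cnr2 had between 0 and 6 counts there. All 12 medium spiny neuron markers had counts, which here and below means counts in at least 1 library of the set. All 8 choroid plexus and ependyma markers and all 12 B and plasma cell markers had counts too, so this does not test the tissue label. The D1 receptor gene Drd1 ran from 42.6 to 450 CPM (median 242), the D2 receptor gene Drd2 from 12.9 to 205 (median 63.3) and Ppp1r1b, which encodes DARPP-32, from 65.4 to 834 (median 335). Among the cortical glutamatergic markers Slc17a7, the vesicular glutamate transporter VGLUT1, ran from 2.26 to 764 CPM (median 24.8). Fosb itself overlapped between the guides in all 6 arms. Its median was 9.81 CPM with the Fosb guide and 7.15 in controls of female D1 mice, and 6.48 and 4.47 in male D1 mice. It was 5.96 and 7.48 in female D2, 6.12 and 10.2 in male D2, 6.47 and 6.73 in female D1-D2 and 10.3 and 9.07 in male D1-D2 mice. It was thus higher in the libraries labelled as targeted in both D1 arms and male D1-D2 mice, and lower in the other 3 arms. The male D1 library 18722 and the male D1-D2 library 18749, both with the Fosb guide, were the second most alike of 3741 pairs (r = 0.9937 over 25420 genes), and leaving both out gave 0 members called in every guide comparison, as with them.

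Mgll and Cnr1 were the most abundant members per length of transcript, and Cnr2 the least. CPM here are counts scaled to a common library size by TMM, a correction for library composition, and were divided by exon length from GENCODE M21 on mm10. Over 87 libraries the mean level was 19.9 CPM per kb for Mgll (chr6:88724412-88828360, plus strand), 13.5 for Cnr1 (chr4:33924593-33948831, plus strand) and 0.781 for Cnr2 (chr4:135895394-135920207, plus strand). The 2-AG hydrolase Abhd6 (chr14:8002902-8056763, plus strand) had 7.86 CPM per kb, Daglb (chr5:143464584-143505942, plus strand) 6.72 and Dagla (chr19:10245265-10304877, minus strand) 5.1. Mgll was thus the most abundant of the 2-AG genes, with Daglb and Dagla close to each other. Cnrip1 (chr11:17051586-17079371, plus strand) had 4.62 CPM per kb, and the anandamide enzymes Napepld (chr5:21662901-21701396, minus strand) and Faah (chr4:115967145-116017926, minus strand) had 1.88 and 1.81. Daglb shares 24.1% of its exonic bases with Rac1 on the opposite strand and Cnrip1 4.97% with Plek. The kit marks strand but the strand setting of the counting is not given, so levels of these 2 genes are uncertain.

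The members differed in how steady they were from mouse to mouse. Over 87 libraries the coefficient of variation of CPM was 13.5% for Daglb, 17.8% for Abhd6, 22.2% for Napepld, 24.9% for Cnrip1 and 26.2% for Mgll. It was 40.1% for Dagla, 47.9% for Cnr1, 53.2% for Cnr2 and 56.7% for Faah. The share of variance that lay between the 12 groups was 49.2% for Daglb, 26% for Dagla and 24.6% for Mgll. It was 11.3% for Cnr2 and for Napepld, 10.4% for Abhd6, 8.84% for Cnr1, 7.36% for Faah and 6.3% for Cnrip1. These shares are of log2 CPM. With 12 groups some share falls between groups even where groups do not differ, and this was not subtracted. Sequencing batch also enters it through the male D2 groups. In each of the 9 members more of the variation lay between libraries of the same group than between groups.

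**Figure D1:**
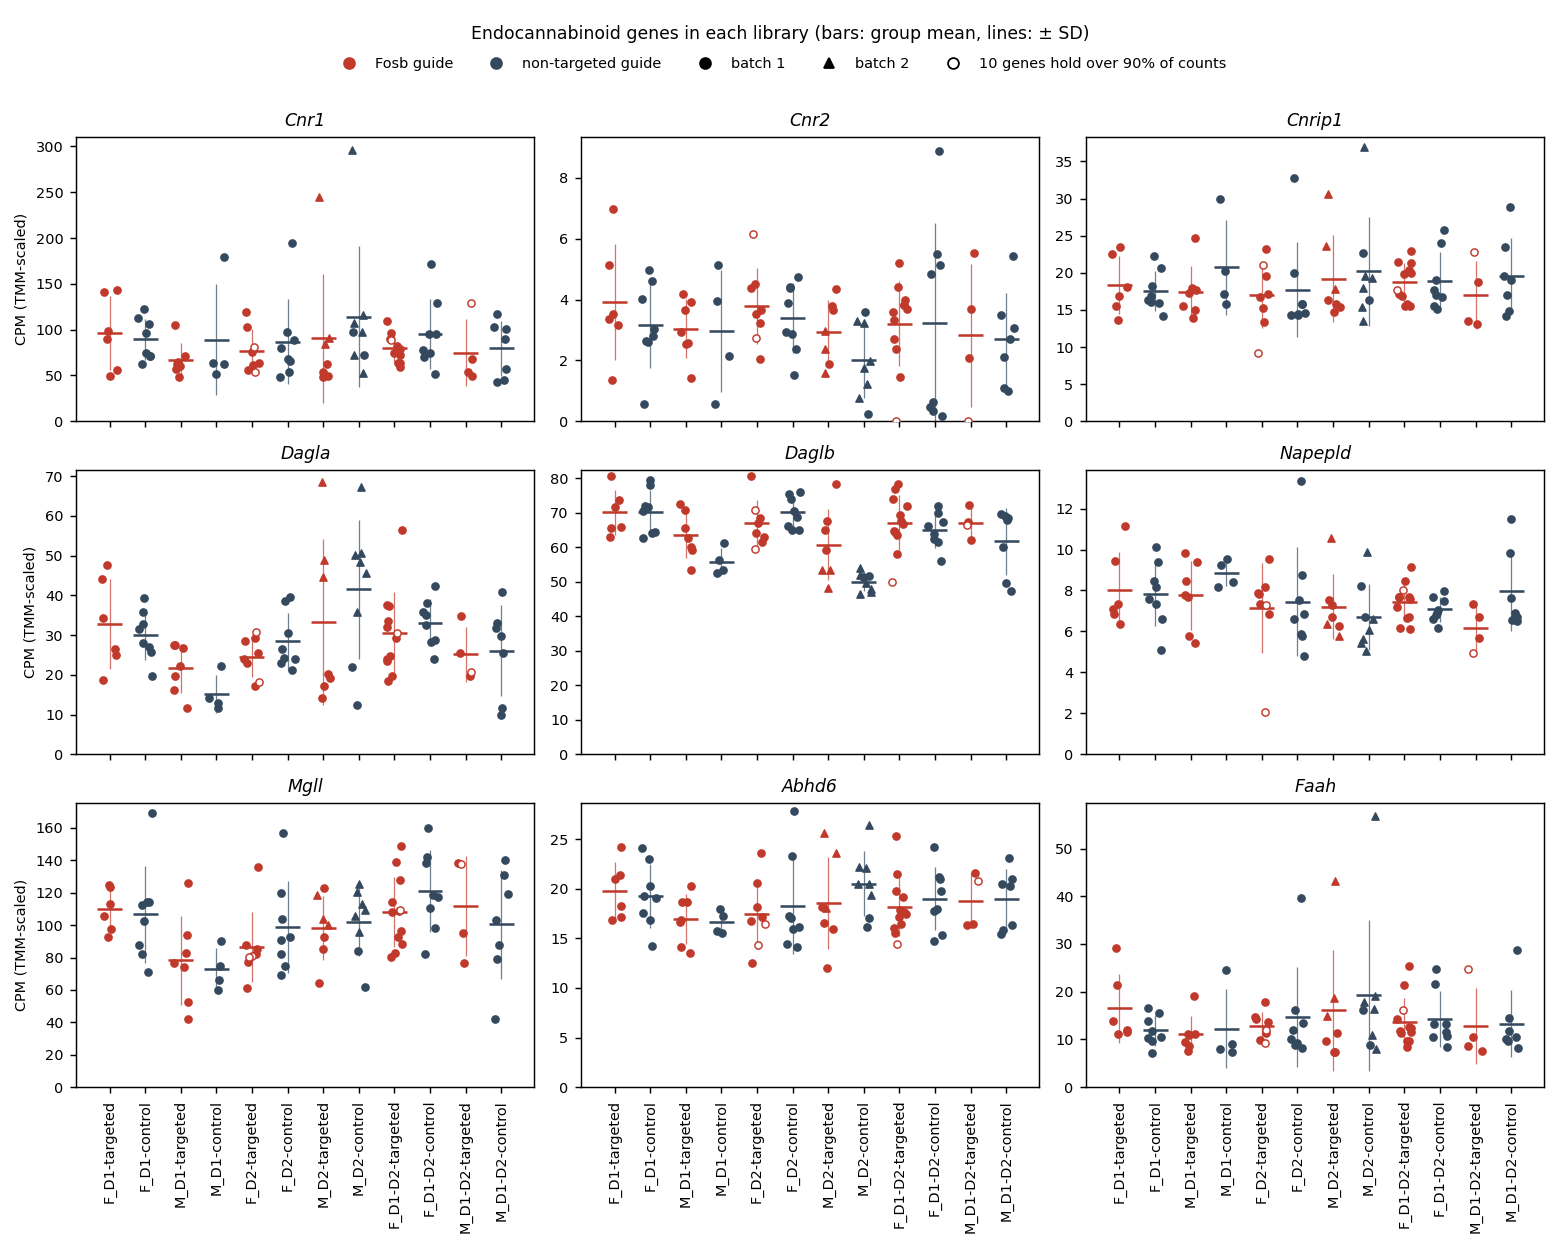
CPM (TMM-scaled, linear axis) of the 9 genes in each of 87 libraries by group, targeted beside control, with the mean as a bar and ± SD as a line. The groups overlap for every gene in every arm, Cnr1 and Faah have single high libraries such as male D2 control 3631 (297 and 56.9 CPM), and Dagla splits by batch in the male D2 arm.

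Cnr1, the main cannabinoid receptor of neurons, had similar levels in all 12 groups, with a few libraries far above the rest. In female D1 mice the lowest, median and highest libraries had 49.2, 94.5 and 143 CPM with the Fosb guide, against 62.2, 85.5 and 123 in controls. In male D1 mice they had 48.7, 62.4 and 105 CPM with the Fosb guide, and the 4 controls had 51.6, 62.1, 63.7 and 179. In female D2 mice they were 53.4, 69.7 and 119 CPM with the Fosb guide and 48.4, 73.8 and 195 in controls. The guides overlapped throughout, and the highest library of these male D1 and female D2 arms was a control. In male D2 mice the lowest, median and highest had 48.3, 62.1 and 245 CPM with the Fosb guide, against 52.9, 97.5 and 297 in controls. In female D1-D2 mice they had 59.2, 77.8 and 109 CPM with the Fosb guide, against 52, 86.3 and 172 in controls. The 4 male D1-D2 libraries with the Fosb guide had 49.1, 54.3, 68.1 and 129 CPM, against a lowest of 43.3, a median of 89.9 and a highest of 117 in 7 controls. Ordered by mean, the groups ran from 67 ± 18 (SD, n = 7, male D1 with the Fosb guide) to 114 ± 76.6 CPM (n = 8, male D2 controls), and no neighbours in that order differed by more than the larger SD of the pair.

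Cnr2, the CB2 receptor, was low throughout, and its spread within groups was as wide as any difference between them. Leaving out the 4 libraries taken up by 10 genes, it ran from 0.189 to 8.9 CPM, a 47.1-fold range. In female D1 mice the lowest, median and highest libraries had 1.37, 3.45 and 6.98 CPM with the Fosb guide, against 0.565, 2.92 and 4.97 in controls. In male D1 mice they had 1.42, 2.92 and 4.19 CPM with the Fosb guide, and the 4 controls had 0.578, 2.15, 3.95 and 5.14. The lowest library of both D1 arms was a control, and the guides overlapped. In female D2 mice the values were 2.05, 3.61 and 6.16 CPM with the Fosb guide and 1.53, 3.4 and 4.75 in controls. In male D2 mice they were 1.6, 2.97 and 4.36 CPM with the Fosb guide and 0.236, 1.87 and 3.6 in controls. Both D2 arms again had their lowest library among the controls. In female D1-D2 mice the values were 0, 3.65 and 5.2 CPM with the Fosb guide, and 0.189, 2.73 and 8.9 in controls. The 4 male D1-D2 libraries with the Fosb guide had 0, 2.07, 3.7 and 5.53 CPM, against a lowest of 0.985, a median of 2.72 and a highest of 5.43 in 7 controls. Both values of 0 came from libraries taken up by 10 genes, where 0 counts allow up to 4.82 CPM (female, 19610) and 2.97 CPM (male, 18919), from 3 counts and for counting error only. The female D1-D2 controls held both the highest library, 16760, and the lowest, 19754.

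Dagla, the lipase that makes most 2-AG in brain, was the member that differed most with sequencing batch. In male D2 mice of batch 2 it had 44.7, 48.9 and 68.7 CPM with the Fosb guide, and between 35.7 and 67.2 CPM in 6 controls. In male D2 mice of batch 1 it had 14.1, 17.2, 19.3 and 20.3 CPM with the Fosb guide, and 12.3 and 22 in the 2 controls. The batches did not overlap, and batch 2 holds libraries of this arm alone, so other arms cannot be compared across it. In batch 1 the groups' means ran from 15.2 ± 4.83 CPM (SD, n = 4, male D1 controls) to 33.1 ± 5.88 (n = 8, female D1-D2 controls). Daglb, the second lipase, was the steadiest member, with group means from 50 ± 2.67 (n = 8, male D2 controls) to 70.3 ± 6.29 CPM (n = 8, female D1 controls). Napepld, which releases anandamide from membrane lipids, had group means between 6.17 and 8.85 CPM, and the lowest library, at 2.05 CPM, rested on 2 counts in a library taken up by 10 genes.

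Mgll, the main hydrolase of 2-AG, had group means between 72.7 ± 13.1 CPM (SD, n = 4, male D1 controls) and 121 ± 25.2 (n = 8, female D1-D2 controls). Abhd6, a second hydrolase of 2-AG, stayed between group means of 16.6 and 20.5 CPM. Faah, the hydrolase of anandamide, ranged between group means of 11.1 and 19.3 CPM, and Cnrip1 between 17 and 20.8. High libraries of Faah and Cnrip1 were often those high in Cnr1. In the male D2 control 3631, Cnr1 had 297 CPM, Faah 56.9 and Cnrip1 36.9, each the highest of all 87 libraries. In the male D2 library 3632, with the Fosb guide, Cnr1 had 245 CPM and Faah 43.2, and in the female D2 control 17906 Cnr1 had 195 and Faah 39.6.

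None of the 9 members passed the test of the Fosb guide in any arm. The question was whether directing the CREB activator to Fosb moved these genes, and edgeR's quasi-likelihood test with Benjamini-Hochberg adjustment over 25420 genes called 0 of 9 in each of 6 arms and over all arms together. Few genes of any kind were called, namely 0% in male D1, female D2 and female D1-D2 mice and over all arms, 0.00393% in both female D1 and male D1-D2 mice, and 0.0629% in male D2 mice. At an unadjusted p under 0.05 the members counted 1 in male D2 mice and 1 over all arms, both Daglb, and 0 in the other 5 arms. Of all genes tested 2.18% had such a p in male D2 mice and 9.52% over all arms, so 1 of 9 over all arms is about the rate of the whole table. In the other 5 arms the share of all genes was between 1.66% and 7.11%. DESeq2 and limma-voom also called 0 of 9 in each of these comparisons.

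**Figure D2:**
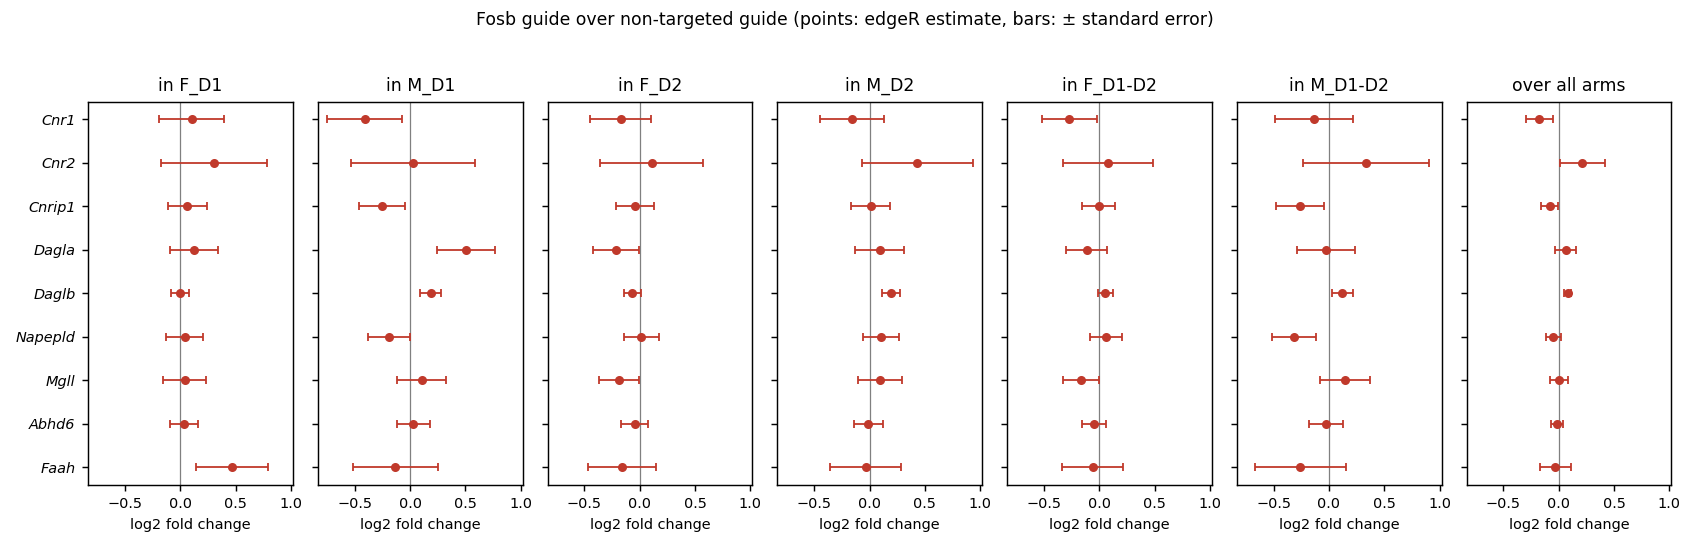
Log2 fold change of each member, Fosb guide over non-targeted guide, in 6 arms and as their mean, with points for the edgeR estimate and bars for ± 1 standard error. Daglb in male D2 mice (0.19) and over all arms (0.08) lies farthest from 0 for its error, and no estimate passed the adjusted test.

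Daglb came nearest to a difference between guides. In male D2 mice its lowest, median and highest libraries had 48.1, 59.2 and 78.3 CPM with the Fosb guide, against 46.4, 50.5 and 54.1 in controls. That is a log2 fold change of 0.19 (SE 0.08), with 6 of 7 targeted libraries above the control median and an edgeR adjusted p of 1. In batch 1 it averaged 67.5 ± 7.98 CPM with the Fosb guide (n = 4) and 51.4 ± 0.259 in controls (n = 2), exact permutation p = 0.0667, two-sided, which is the smallest that 15 splits allow. In batch 2 it averaged 51.7 ± 3.08 (n = 3) and 49.5 ± 2.98 CPM (n = 6), exact permutation p = 0.333. The guides stood apart in batch 1 and overlapped in batch 2. In male D1 mice the log2 fold change was 0.19 too (SE 0.09, edgeR adjusted p = 0.686). Over all arms the log2 fold change was 0.08 (SE 0.03, edgeR adjusted p = 0.516).

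Dagla in male D1 mice had the largest estimate among the enzymes of 2-AG. The lowest, median and highest of 7 libraries with the Fosb guide had 11.6, 22.1 and 27.6 CPM, and the 4 controls had 11.5, 12.9, 14.2 and 22.3. The groups overlapped at both ends, and 6 of 7 targeted libraries lay above the control median. The log2 fold change was 0.51 (SE 0.26, edgeR adjusted p = 0.686), and 0.14 (SE 0.13) with 3 surrogate variables in the model. In the other arms Dagla ran from −0.21 (SE 0.21, female D2) to 0.12 (SE 0.22, female D1). Mgll ran from −0.19 (SE 0.18, female D2) to 0.14 (SE 0.22, male D1-D2), and Abhd6 from −0.05 (SE 0.11, female D1-D2) to 0.03 (SE 0.13, female D1).

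The receptors had wider errors than the enzymes of 2-AG. Cnr1 ran from −0.41 (SE 0.34, male D1, edgeR adjusted p = 0.757) to 0.10 (SE 0.29, female D1) on the log2 scale. In male D1 mice that value was set by control library 18383, without which it was 0.18. Cnr2 ran from 0.03 (SE 0.56, male D1) to 0.43 (SE 0.50, male D2), with edgeR adjusted p = 1 in each. Exact permutation tests of mean log2 CPM (prior count 2), two-sided and within batch in male D2 mice, gave adjusted p = 0.612 in each of 6 arms, with differences from −0.94 (male D1-D2) to 0.86 (male D2). The male D1-D2 difference was 0.58 without library 18919, whose 0 counts of Cnr2 weigh heavily on a log scale. In female D1-D2 mice the edgeR estimate was 0.08 (SE 0.41), against 1.49 (SE 0.45, adjusted p = 0.0801) by limma-voom with quality weights. It was −0.82 (SE 0.35, edgeR adjusted p = 0.58) without the 7 libraries low in antigen presentation transcripts, 4 of which are controls of that arm. The antigen presentation list summed to between 2240 and 7280 CPM with the Fosb guide in that arm and between 141 and 9420 in controls, all 13 markers having counts, and its part in the Cnr2 estimate was not tested.

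Faah, Napepld and Cnrip1 completed the set. Faah ran from −0.26 (SE 0.41, male D1-D2) to 0.47 (SE 0.33, female D1), Napepld from −0.31 (SE 0.20, male D1-D2) to 0.10 (SE 0.16, male D2) and Cnrip1 from −0.26 (SE 0.22, male D1-D2) to 0.06 (SE 0.18, female D1). Without the 8 libraries in which the cortical glutamatergic list had a mean over 4 log2 CPM, the female D1 value of Faah was 0.03 (SE 0.26). That list summed to between 104 and 732 CPM with the Fosb guide in female D1 mice and between 53.2 and 284 in controls, with all 10 markers counted, and its part in the Faah estimate was not tested. Over all arms the 9 members had a median log2 fold change of −0.01, beside 0.00219 for all genes tested, with 4 above 0 and 5 below.

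No gene of the wider pathway passed either. Of 54 genes on 4 lists (other endocannabinoid metabolism, other cannabinoid-responsive receptors, 2-AG production upstream and CB1 signalling partners) 51 were tested, and 0 were called by edgeR in any arm or over all arms. Over all arms 2 of the 51 had an unadjusted p under 0.05, a lower share than the 9.52% of all genes. They were Rgs7, a regulator of G protein signalling, at a log2 fold change of −0.14 (SE 0.06) and the channel gene Trpv2 at 0.21 (SE 0.10), with edgeR adjusted p of 0.516 and 0.518. The smallest p of the other 2 lists there belonged to Homer1, a scaffold of group I glutamate receptors, at −0.14 (SE 0.08), and to the lysophospholipase Abhd12 at −0.06 (SE 0.03), neither of which passed. In single arms the smallest p was that of Rgs4, another regulator of G protein signalling, at −0.60 (SE 0.20) in female D1 mice, edgeR adjusted p = 0.987. Next came Abhd12 at −0.16 (SE 0.06) and Homer1 at −0.44 (SE 0.17), both in female D2 mice with edgeR adjusted p of 1.

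The guide effect was not shown to differ between D1 and D2 cells for any member. The D1 effect minus the D2 effect was tested itself, and edgeR called 0 of 9 members in females and 0 of 9 in males, with 0.00393% and 0% of all genes called. No member had an unadjusted p under 0.05 in either sex, beside 3.58% of all genes in females and 1.84% in males. DESeq2 and limma-voom called 0 members as well. In females all 9 estimates were above 0, though 3 of 9 without the 8 libraries high in cortical transcripts and 4 of 9 with surrogate variables, with a median of 0.20 beside 0.02 for all genes, and the widest were Faah at 0.63 (SE 0.45) and Dagla at 0.34 (SE 0.30). In males 3 were above 0 and 6 below, with a median of −0.10 beside 0.01, and Dagla was highest at 0.42 (SE 0.34).

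Of the 9 members 3 stood higher in female than in male control mice. Dagla, Mgll and Daglb, all genes of 2-AG turnover, passed the comparison of D1 and D1-D2 controls of batch 1. The edgeR test called 3 of 9 members, beside 23% of all genes (3029 higher in females and 2825 lower), so that members were called at about the rate of the whole table.

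**Figure D3:**
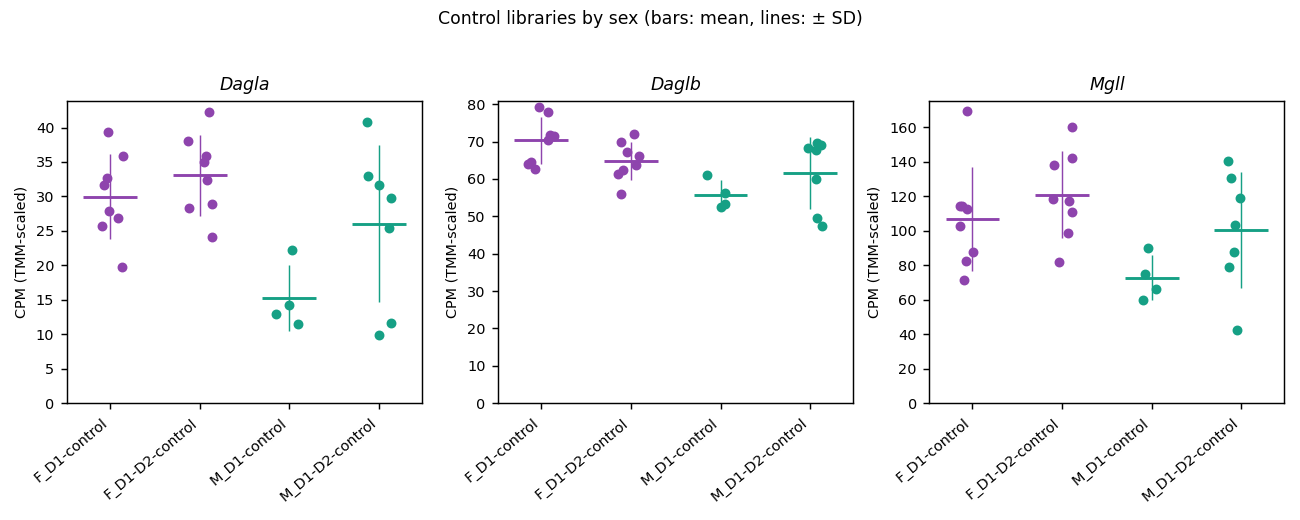
CPM (TMM-scaled) of Dagla, Daglb and Mgll in control libraries of the D1 and D1-D2 arms, females left and males right, with means as bars and ± SD as lines. Female D1 controls lie above male D1 controls in Daglb without overlap (lowest 62.7 against highest 61.2 CPM), and the D1-D2 controls overlap in all 3 genes. The share of all genes without overlap was not counted.

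Dagla had 19.7, 29.8 and 39.3 CPM as lowest, median and highest of 8 female D1 controls, against 11.5, 12.9, 14.2 and 22.3 in the 4 male D1 controls. In D1-D2 controls it had 24.1, 33.7 and 42.3 CPM in 8 females, against 9.94, 29.8 and 40.9 in 7 males. The sexes overlapped in both arms, more so in D1-D2. The log2 difference was 0.66 (SE 0.17, edgeR adjusted p = 0.00376). Daglb had 62.7, 71 and 79.4 CPM in female D1 controls, against 52.4, 53.3, 56.2 and 61.2 in male D1 controls. In D1-D2 controls it had 56, 65 and 72 CPM in females, against 47.3, 67.8 and 69.7 in males. The D1 controls did not overlap, while the male median was above the female one in D1-D2. How many of all genes lacked overlap in the D1 controls was not counted. The log2 difference was 0.20 (SE 0.06, edgeR adjusted p = 0.011). Mgll had 71.2, 108 and 169 CPM in female D1 controls, against 59.9, 66.2, 74.7 and 90.2 in male D1 controls. In D1-D2 controls it had 81.9, 118 and 160 CPM in females, against 42.2, 103 and 140 in males. The sexes overlapped in both arms. The log2 difference was 0.41 (SE 0.14, edgeR adjusted p = 0.03).

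The other 6 members did not pass. Cnr1 differed by 0.14 (SE 0.22), Cnr2 by 0.18 (SE 0.36), Abhd6 by 0.11 (SE 0.10), Faah by 0.03 (SE 0.24), Cnrip1 by −0.15 (SE 0.13) and Napepld by −0.17 (SE 0.12). The members' median was 0.14 beside −0.03 for all genes, with 7 of 9 above 0. Scaling by DESeq2 size factors left Dagla alone called, moved the median of all genes to −0.10 and the share of called genes that were higher in females to 32.5%, against 51.7% with TMM. With 3 surrogate variables in the model 0 of 9 were called, and the log2 difference of Dagla was 0.23 (SE 0.09). Without the 8 libraries high in cortical transcripts 4 of 9 were called, the added one being Cnr1 at 0.49 (SE 0.18, edgeR adjusted p = 0.041). Mgll was not called without male D1 control 17789 or without 18069, nor without the 7 libraries low in antigen presentation transcripts.

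Mice with the Fosb guide, which that comparison did not use, gave means in the same direction for Dagla in the D1 and D1-D2 arms. Dagla averaged 32.7 ± 11.3 CPM in females (SD, n = 6) and 21.6 ± 6.22 in males (n = 7) of the D1 arm, and 30.6 ± 10.3 (n = 12) and 25.1 ± 6.89 (n = 4) in D1-D2. Mgll averaged 110 ± 13.3 CPM in females and 78.2 ± 27.6 in males of the D1 arm, but 108 ± 21.7 and 112 ± 31.1 in D1-D2. Daglb averaged 70.1 ± 6.48 CPM in females and 63.5 ± 6.7 in males of the D1 arm, and 67.1 ± 8.01 and 67 ± 4.21 in D1-D2. These differences were not tested.

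Markers of several cell types were also called between the sexes in the same controls, at shares to be read beside the 23% of all genes. All 12 medium spiny neuron markers were above 0 and 5 were called higher in females, their CPM summing to between 2020 and 5450 in 16 female controls (median 3330) and between 922 and 4900 in 11 male controls (median 2700). All 6 oligodendrocyte precursor markers were above 0, 4 of them called higher, with sums of 112 to 233 CPM in female and 73.6 to 212 in male controls. All 9 astrocyte markers were above 0, 2 called higher, with sums of 3140 to 5010 CPM in female and 2210 to 4870 in male controls, a share called close to that of all genes. All 5 cholinergic interneuron markers were above 0, 3 called higher, with sums of 43.9 to 87.9 CPM in female and 24 to 78.7 in male controls. Of 8 endothelial and pericyte markers 7 were above 0 and 2 were called higher, with sums of 128 to 358 CPM in female and 182 to 263 in male controls. In these 5 lists all markers had counts in both sexes. In bulk tissue more cells of a type and more RNA per cell cannot be told apart, and the part of these lists in the sex difference of the members was not tested.

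Some upstream and downstream genes of the pathway were also called between the sexes, beside 23% of all genes. The share called was above that among CB1 signalling partners, and about that or less on the other pathway lists. Of 13 genes upstream of 2-AG 3 were called higher in females and 0 lower: Plcb1, a phospholipase C, at 0.49 (SE 0.14, edgeR adjusted p = 0.00734), the muscarinic receptor Chrm1 at 0.46 (SE 0.15) and the G protein subunit Gnaq at 0.26 (SE 0.10). Of 15 CB1 signalling partners 6 were called higher and 0 lower, the 4 of smallest p being the arrestin Arrb1 at 0.44 (SE 0.12), the receptor kinase Grk2 at 0.37 (SE 0.10), the sorting protein gene Gprasp1 at 0.41 (SE 0.11) and striatal adenylyl cyclase Adcy5 at 0.71 (SE 0.20). Of 15 tested genes of other endocannabinoid metabolism Gde1, a phosphodiesterase that can release anandamide, was called higher at 0.22 (SE 0.08) and Fabp5, a carrier of anandamide in cells, lower at −0.40 (SE 0.14). Of 8 tested receptors none was called, and Gpr12, an orphan receptor, had the smallest p at 0.41 (SE 0.18, edgeR adjusted p = 0.0857).

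Cnr2 followed immune transcripts from library to library. Over all 78 libraries of batch 1 the list that Cnr2 followed most closely differed with the measure, being antigen presentation by Spearman's rho and microglia by Pearson's r. The 6 immune lists were compared with it, within batch, as the mean log2 CPM of each list (prior count 2), in 12 relations adjusted together. Over the 78 libraries of batch 1 the antigen presentation list (major histocompatibility genes, their peptide transporters and proteasome subunits) gave Spearman's rho of 0.913 and Pearson's r of 0.714, with r = 0.651 without the 2 libraries farthest from its median. The rho was 0.848 with microglia, 0.828 with B and plasma cells, 0.822 with monocytes and granulocytes, 0.788 with interferon-stimulated genes and 0.676 with T and NK cells, and r ran from 0.681 to 0.799, or from 0.607 to 0.758 without the 2 farthest libraries. Each permutation p was 1e-05, the smallest that 100000 resamples give, and 2e-05 after adjustment for rho and r alike. With group means removed rho ran from 0.771 to 0.867, so the relation held within groups. Without the 4 libraries taken up by 10 genes r ran from 0.87 to 0.93 over 74 libraries. Antigen presentation was then highest by both measures (r = 0.93, rho = 0.916), with microglia at 0.926 and 0.845.

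**Figure D4:**
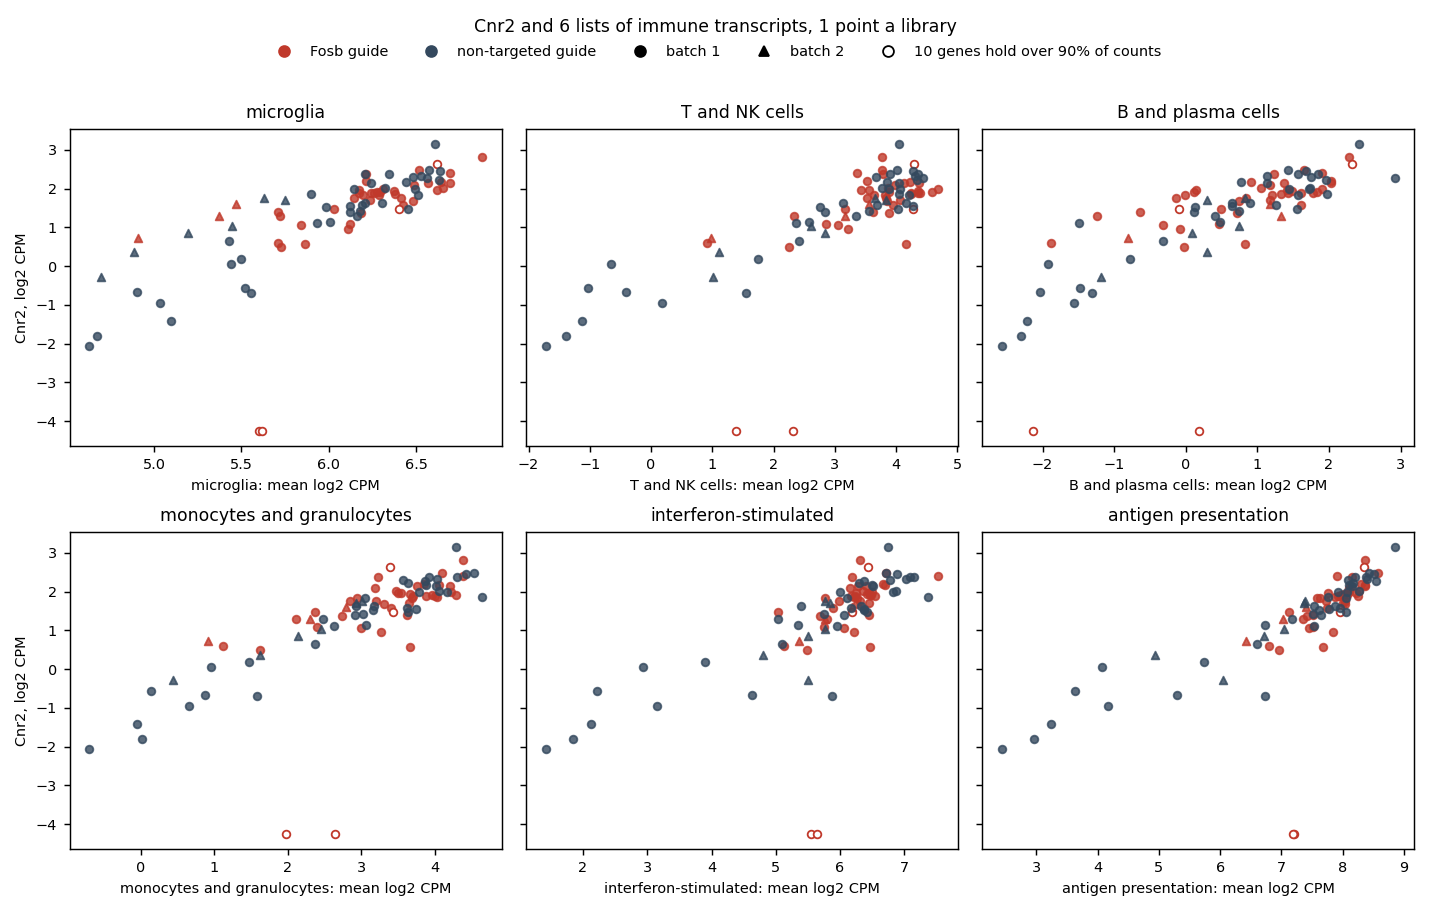
Log2 CPM of Cnr2 (prior count 2) against the mean log2 CPM of 6 immune lists, 1 point a library, coloured by guide and shaped by batch. Cnr2 goes up with each list (batch 1 rho 0.676 to 0.913), control libraries such as 19754 lie at the low end, and the 2 open points at the bottom are libraries with 0 counts of Cnr2.

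Several libraries low in Cnr2 were also among the lowest in antigen presentation transcripts, with exceptions. The female D1-D2 control 19754 had 0.189 CPM of Cnr2, 6.3 of Cd74 (the invariant chain of class II histocompatibility proteins) and 50.3 of B2m (the light chain of class I), the lowest Cd74 and B2m of all libraries and the lowest Cnr2 above 0. The male D2 control 18386 had 0.236 CPM of Cnr2, and the female D1-D2 controls 19599, 19598 and 19750 had 0.323, 0.466 and 0.622. Their antigen presentation lists had means between 2.44 and 4.17 log2 CPM. The female D1 control 16597 and the male D1 control 18383 were as low in Cnr2, at 0.565 and 0.578 CPM, with list means of 6.74 and 5.30, and both libraries with 0 counts of Cnr2 had list means of 7.21 and 7.20. The male D1-D2 control 19511 had a list mean of 4.07 and 0.985 CPM of Cnr2. At the other end the female D1-D2 control 16760 had 8.9 CPM of Cnr2 and 1570 of Cd74, the highest of all libraries. All 7 libraries whose antigen presentation list lay under a mean of 5 log2 CPM were controls, 4 of them female D1-D2. All 16 microglia markers had counts, their CPM summing to between 577 and 3360 (median 2000). P2ry12, a purinergic receptor of resting microglia, ran from 17.9 to 72.8 CPM.

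Batch 2 was small and its list values fell into separate clusters, so relations were taken within the larger cluster. With antigen presentation rho was 0.905 and r 0.967 over 8 libraries (exact permutation p = 0.0046 and 0.00027, adjusted 0.0068 and 0.00047), with r = 0.952 without the 2 farthest libraries. With monocytes and granulocytes rho was 0.964 and r 0.973 over 7 libraries (exact permutation p = 0.0028 and 0.0018, adjusted 0.0048 and 0.0027), then r = 0.918. With microglia, and with T and NK cells, rho was 0.886 over 6 libraries (exact permutation p = 0.033, adjusted 0.04), with r of 0.869 and 0.944 (adjusted p = 0.025 and 0.019), then 0.731 and 0.942. These 4 lists passed in batch 2, although with group means removed rho no longer passed for microglia (0.943, exact permutation, adjusted p = 0.2) or for T and NK cells (0.886, adjusted p = 0.29). Interferon-stimulated genes gave rho of 0.643 and r of 0.675 (n = 8, exact permutation p = 0.096 and 0.069, adjusted 0.10 and 0.075) and B and plasma cells 0.536 and 0.45 (n = 7, exact permutation p = 0.24 and 0.31, adjusted 0.24 and 0.31), or r of 0.814 and 0.447 without the 2 farthest,, and did not pass.

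The genes most like Cnr2 across the 78 batch 1 libraries were ranked by rho. Among 14293 genes with a mean of at least 1 CPM the 5 of highest rho were Tifab (0.923), Tnfrsf1a (0.917), which encodes a receptor of tumour necrosis factor, Vcam1 (0.916), an adhesion molecule for leukocytes, Unc93b1 (0.915), a chaperone of nucleic acid-sensing Toll-like receptors, and Scpep1 (0.914). These are descriptions over libraries that share tissue and preparation.

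Cnr1, Faah and Cnrip1 moved together across libraries, and with interneuron and cortical markers. In batch 1 (n = 78) rho was 0.753 between Cnr1 and Faah (r = 0.808, 0.77 without the 2 libraries farthest from the median of Cnr1), 0.719 between Cnr1 and Cnrip1 (r = 0.769, then 0.717) and 0.66 between Faah and Cnrip1 (r = 0.728, then 0.681). Each had a permutation p of 1e-05, the smallest possible, and 6e-05 for rho and 5.1e-05 for r when adjusted over 36 pairs of members, of which 17 were called positive and 7 negative. The share called among pairs of other genes was not measured. With the GABAergic interneuron list rho was 0.824 for Cnr1, 0.804 for Faah and 0.726 for Cnrip1, with r of 0.834, 0.837 and 0.737, or 0.812, 0.816 and 0.702 without the 2 farthest libraries. With the cortical glutamatergic list rho was 0.671, 0.625 and 0.52, with r of 0.751, 0.736 and 0.563, or 0.717, 0.694 and 0.508. Each permutation p was 1e-05 and 5.1e-05 after adjustment over 144 pairs of a member and a list. The 2 lists were not separate in these libraries. The GABAergic list mean ran from 2.12 to 4.21 log2 CPM in batch 1. In the batch 1 libraries with a cortical list mean over 4 it was 4.21 (17906), 3.96 (19219), 3.91 (16565), 3.9 (18383) and 3.78 (16754). Cck, on the GABAergic list, was highest in 17906 (136 CPM, median 9.84). The relations with the 2 lists were not tested apart.

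**Figure D5:**
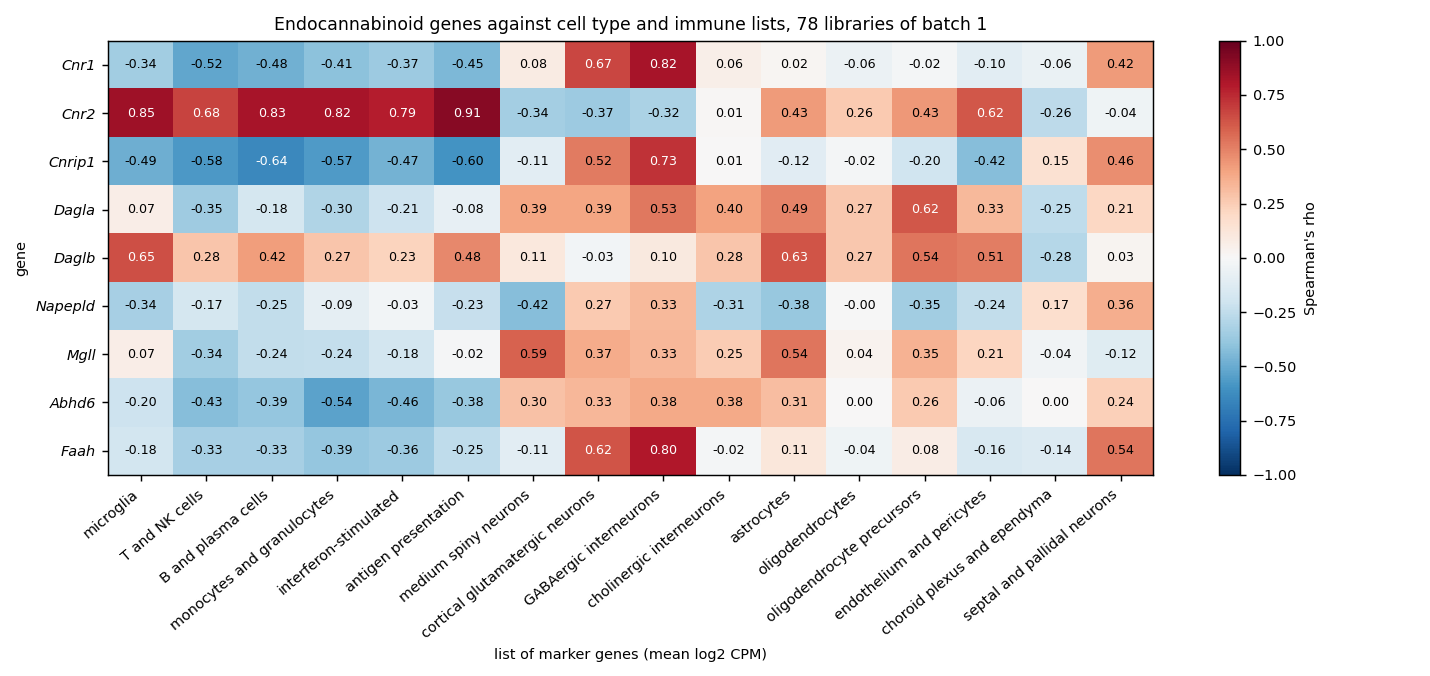
Spearman's rho between log2 CPM of each member and the mean log2 CPM of 16 marker lists over batch 1 libraries (78, or the larger cluster where list values were separate), red for positive and blue for negative. Cnr2 stands out on the immune lists (up to 0.91), and Cnr1, Faah and Cnrip1 on GABAergic interneurons (0.73 to 0.82). Mgll is highest on medium spiny neurons (0.59), with astrocytes next (0.535). The GABAergic list was also high in the libraries high in cortical transcripts.

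The libraries highest in Cnr1 were among those high in cortical transcripts. The male D2 libraries 3632, with the Fosb guide, and 3631, a control, had cortical list means of 4.83 and 4.69 log2 CPM, the female D2 control 17906 had 4.62 and the male D1 control 18383 had 4.07. The cortical list summed to between 39.7 and 806 CPM in batch 1 (median 88.4) and between 80.7 and 1040 in batch 2 (median 308), with all 10 markers counted. In 3631 Slc17a7 reached its highest value, 764 CPM, and Drd1 and Ppp1r1b their lowest, at 42.6 and 65.4 CPM. What part of Cnr1 in these libraries came with those transcripts was not tested. With the medium spiny neuron list Cnr1 had a rho of 0.08 (n = 77, r = 0.01, permutation p = 0.47 and 0.91, adjusted 0.57 and 0.92), or r = −0.05 without the 2 farthest libraries, which did not pass.

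Among the genes of 2-AG, Dagla was related to each of the others, but not all were related to one another. In batch 1 (n = 78) rho was 0.605 between Dagla and Mgll (r = 0.658, 0.609 without the 2 farthest libraries), 0.607 between Dagla and Abhd6 (r = 0.601 both times) and 0.451 between Dagla and Daglb (r = 0.541, then 0.463). Their permutation p were at most 5e-05, and at most 2e-04 after adjustment over 36 pairs. Between Daglb and Abhd6 rho was 0.123 (r = 0.163, then 0.126, permutation p = 0.29 and 0.16, adjusted 0.33 and 0.21), which did not pass. Dagla was related to Cnr1 and Faah about as closely as to Daglb, with rho of 0.473 and 0.44 (r = 0.441 and 0.456, then 0.455 and 0.482, permutation p at most 0.00013, adjusted at most 0.00033). Cnr2 went against Cnr1 and Cnrip1, with rho of −0.432 and −0.612 (r = −0.461 and −0.481, or −0.443 and −0.565 without the 2 farthest, permutation p at most 7e-05, adjusted at most 0.00023). With the lists, Mgll gave rho of 0.592 with medium spiny neurons (n = 77, r = 0.611, then 0.577), Dagla 0.619 with oligodendrocyte precursors (n = 78, r = 0.608, then 0.613) and Daglb 0.645 with microglia (n = 78, r = 0.628, then 0.642), each with a permutation p of 1e-05, adjusted 5.1e-05. None was particular to 1 list. With astrocytes (n = 76) rho was 0.632 for Daglb (r = 0.64, then 0.615) and 0.535 for Mgll (r = 0.553, then 0.507). Dagla gave 0.53 with GABAergic interneurons (n = 78, r = 0.498, then 0.477). Of 144 pairs of a member and a list 91 passed at an adjusted p of 0.05, 52 positive and 39 negative. How often other genes pass with these lists was not measured, so the count is not read as particular to the members.

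Likeness to single genes was ranked for the other 4 of the 5 members chosen for it. By rho over 78 libraries Cnr1 was most like Nrg3 (0.863), a neuregulin, Nwd2 (0.862), Necab3 (0.86), Dnajc6 (0.855), the neuronal uncoating factor auxilin, and Golga7b (0.854). Faah was most like Cacna1g (0.917), a T-type calcium channel, Kcnc4 (0.901), a potassium channel, Gfra2 (0.891), the neurturin receptor, Olfm2 (0.888) and Ptpru (0.886). Dagla was most like Adgrl1 (0.945), a latrophilin, Atg9a (0.933), Iqsec1 (0.921), Cyfip2 (0.919) and Pld3 (0.918). Mgll was most like Ddn (0.874), the postsynaptic protein dendrin, Rasgef1c (0.85), Rab15 (0.832) and Chst2 (0.83).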

How the data were processed

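Total RNA of nucleus accumbens was sequenced after ribosomal depletion with a stranded kit, per the labels' protocols. The authors deposited whole-number counts of reads per gene without normalization. Trim Galore, HISAT2, SAMtools, featureCounts (Subread), DESeq2 1.27 and mm10 are named in the submitters' processing notes; no annotation or strand setting for the counting is given in the sources used here. Of 88 labelled libraries 87 were used, and 1 column matched no label and was not used. Of 55487 identifiers, 55094 match GENCODE M21 with the same version.

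Libraries were grouped by their titles. The main test was edgeR 4.0.16's robust quasi-likelihood test (R 4.3.3) with TMM scaling, the filterByExpr filter and a model of 12 groups and batch, and p-values were adjusted by Benjamini-Hochberg over 25420 genes. There were 10 comparisons. Female minus male controls is the mean of D1 and D1-D2 controls in batch 1. Bounds that edgeR sets on some quasi-likelihood p (Napepld, Abhd6 and Daglb) made these larger, and they are not quoted. Log2 CPM used a prior count of 2. Correlations used 100000 resamples, or exact pairings in batch 2. With group means removed they used 100000 resamples within groups in both batches. A gap over 20% of a list's range split libraries into clusters, of which the larger was used. Promoters are from RefSeq on GRCm38.p6. Where nothing says that libraries are separate mice, p-values measure the spread between libraries. Intervals and floors cover counting error only.

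The members, gene lists and tests were chosen with earlier results of these data known. All 9 members are named in every comparison. From the 4 pathway lists, up to 4 called genes of smallest p are named, and otherwise the gene of smallest p over all arms; in single arms the 3 of smallest p over the lists are named. The 5 genes most like Cnr1, Cnr2, Dagla, Mgll and Faah are those of highest rho, of which 1 for Mgll is not reported here. Alternatives were DESeq2 1.42.0 size factors and Wald test, no filter, 3 surrogate variables (sva 3.50.0), no batch term, limma 3.58.1 voom with quality weights, each batch alone, and leaving out libraries. Leaving out libraries high in cortical or low in antigen presentation transcripts was chosen after seeing the data. The scripts were tested on simulated counts.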

Additional observations from a re-analysis of the deposited data

Results flagged for a closer look

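Of 99 sets of a member in a group of 4 to 10 libraries, 20 held a library whose gap to the next exceeded Dixon's critical value, in 10 libraries. Chance flags about 1 in 20 sets where sets are independent and values normally distributed. These were linear CPM of related members in the same libraries, so that rate is no measure of an excess here. Of the 20 flagged values all but 1 were the highest of their group. Cnr1 stood apart at 245 CPM in male D2 library 3632 with the Fosb guide and at 297 in male D2 control 3631. It also did so at 105 CPM in male D1 library 18368 with the Fosb guide and at 179 in male D1 control 18383, and at 195 in female D2 control 17906. Faah stood apart in the same 5 libraries, at 43.2, 56.9, 19.1, 24.6 and 39.6 CPM in that order. It did so too at 24.8 CPM in male D1-D2 library 18919 with the Fosb guide, 1 of the libraries taken up by 10 genes, and at 28.6 in male D1-D2 control 19219. Cnrip1 stood apart at 36.9 CPM in 3631, 24.7 in 18368 and 32.7 in 17906.

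Napepld was high at 10.6 CPM in 3632 and at 13.3 in 17906, and was low at 2.05 CPM, from 2 counts, in female D2 library 17907 with the Fosb guide. Mgll was high at 136 CPM in female D2 library 18150 with the Fosb guide and at 169 in female D1 control 19755.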

How the results depend on the processing

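In all 9 guide comparisons 0 members were called under every alternative run, among 900 fold changes of which 154 changed sign without being called in either fit. Of the 3 members called between the sexes, DESeq2 size factors left 1 and 3 surrogate variables left 0, no filter, no batch term and leaving out libraries low in antigen presentation left 2, and leaving out each male D1 control gave 2 to 3. With group means removed, Cnr2 in batch 2 kept rho of 0.943 with microglia and 0.886 with T and NK cells but missed the threshold. The adjusted p were 0.2 and 0.29 (n = 6), by permutation within groups, which leaves few arrangements of 6 libraries. The cause was not tested. By r, microglia passed in that setting (0.931, adjusted 0.049), T and NK cells did not (0.943, adjusted 0.18), and interferon-stimulated genes did (0.667, adjusted 0.022, n = 8).

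Counts over all genes moved more. Between the sexes 5854 genes were called, against 2750 without a batch term and 690 with surrogate variables. In male D2 mice 16 were called, against 122 with no filter, 427 without a batch term, 5 by DESeq2, 1 without libraries high in cortical transcripts, and 0 by limma-voom or within either batch. By limma-voom 746 were called in male D1 and 193 in female D1-D2 mice, and with surrogate variables 211 in female D1-D2 mice, against 0 in each. In the other comparisons the counts were between 0 and 4. Depth limits Cnr2 most: its median library held 113 counts, and 5 libraries held 6 or fewer.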
